A study of Mus musculus with 6 samples.

Results

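Mitochondrial shape is set by a small group of proteins that join and divide the organelle, and 10 genes of this machinery were examined in mouse testis. They were chosen by symbol: Mfn1, Mfn2 and Opa1 for fusion, Oma1 and Yme1l1 for the processing of OPA1, Dnm1l for division, and Fis1, Mff, Mief1 and Mief2 for the recruitment of the division machinery. All 10 were found among the 24411 genes of the files, and all 10 passed the count filter that left 17110 genes for testing. RNA came from frozen testes of age-matched C57BL/6 mice, an inbred laboratory strain, and was sequenced as 6 libraries. In 3 libraries the genotype label is MRP5-/- and MRP9-/-, called labelled DKO here, and in the other 3 it is Wildtype, called labelled WT. The labels give no age, no design of the mutant alleles and no statement of whether animals were pooled, and the p-values measure the spread between these libraries.

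Mitochondria fuse and divide continuously. Mitofusins tether and merge outer membranes, and OPA1 merges inner membranes and shapes cristae, with its activity set by proteolytic cleavage. Division is carried out by the cytosolic GTPase DRP1, encoded by Dnm1l, which adaptors in the outer membrane bring to the organelle. In the testis, mitochondria change form as germ cells mature, from condensed organelles in spermatocytes to the sheath wound around the sperm midpiece.

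MRP5 and MRP9 are membrane transporters encoded by Abcc5 and Abcc12. Abcc12 had 82.1, 82.4 and 72.6 CPM (counts scaled to the TMM-normalized library size, the unit of all levels here unless TPM is named) in the libraries labelled DKO and 165, 158 and 158 in those labelled WT, with -1.02 as the log2 fold change (SE 0.0739; adjusted p by edgeR = 0.000307). Abcc5 was not lower, with 17.0, 16.7 and 16.8 CPM against 10.5, 12.3 and 11.4 CPM, against the direction of its label (log2 fold change 0.56, SE 0.0896; adjusted p by edgeR = 0.0225). A count over the whole gene does not show a missing exon, and groups are named by their labels. Total expected counts were 42673615 to 67131103 in libraries labelled DKO and 26753721 to 31745969 in those labelled WT. Mean fragment length also separated the groups, at 275 to 317 bases against 230 to 258 bases (exact two-sided permutation p = 0.1, the smallest that 3 against 3 allows). Cell types share each library, so fewer cells of a type and less RNA per cell cannot be told apart.

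The genes differed widely in level. In TPM, a level per transcript length scaled to the same total in each library, Mfn2 was the most abundant at 130 ± 10.3 (SD over all 6 libraries) and Oma1 the least at 2.11 ± 0.328, a ratio of 61.6. Mff followed Mfn2 closely at 129 ± 10.8 TPM, and the pair could not be ordered, since Mfn2 exceeded Mff in 3 of 6 libraries. Fis1 had 98.7 ± 8.94 TPM. Yme1l1 at 48.8 ± 10.9 TPM overlapped Dnm1l at 42.3 ± 3.93 TPM, and was the higher of the pair in 5 of 6 libraries. The next pair, Mfn1 at 25.4 ± 2.12 TPM and Mief1 at 22.1 TPM (21.0 to 23.4), also overlapped in range, although Mfn1 was the higher in each library. Opa1 lay lower at 12.4 ± 0.659 TPM and Mief2 at 4.49 ± 0.935 TPM, neither overlapping its neighbour in the order. Expressed as a share of all tested genes, Mfn2 exceeded 91.6% of them in mean TPM and Oma1 26.4%.

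Transcripts of Yme1l1, the inner-membrane protease that cleaves OPA1, were higher in the libraries labelled DKO, and transcripts of Mief2, an outer-membrane receptor for DRP1, were lower. These 2 of the 10 genes, 1 in each direction, passed the test over all genes (edgeR quasi-likelihood test, Benjamini-Hochberg adjusted p under 0.05), against 10.8% of all tested genes (5.75% higher and 5.10% lower). The values of 7 of the 10 did not overlap between the groups, against 35.9% of all tested genes, with 6 of these higher in the libraries labelled DKO, against 18.4% of all genes. At an unadjusted p under 0.05 there were 7, against 31.7% of all tested genes. The median log2 fold change of the 10 was 0.19, beside -0.0042 over all tested genes. The 2 called genes are too few to set apart from the 10.8% of all genes called. None of the 10 was called without DKO replicate 1, DKO replicate 2, WT replicate 2 or WT replicate 3, with 3 to 6 at an unadjusted p under 0.05 in edgeR, and 1 was called without WT replicate 1.

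**Figure D1:**
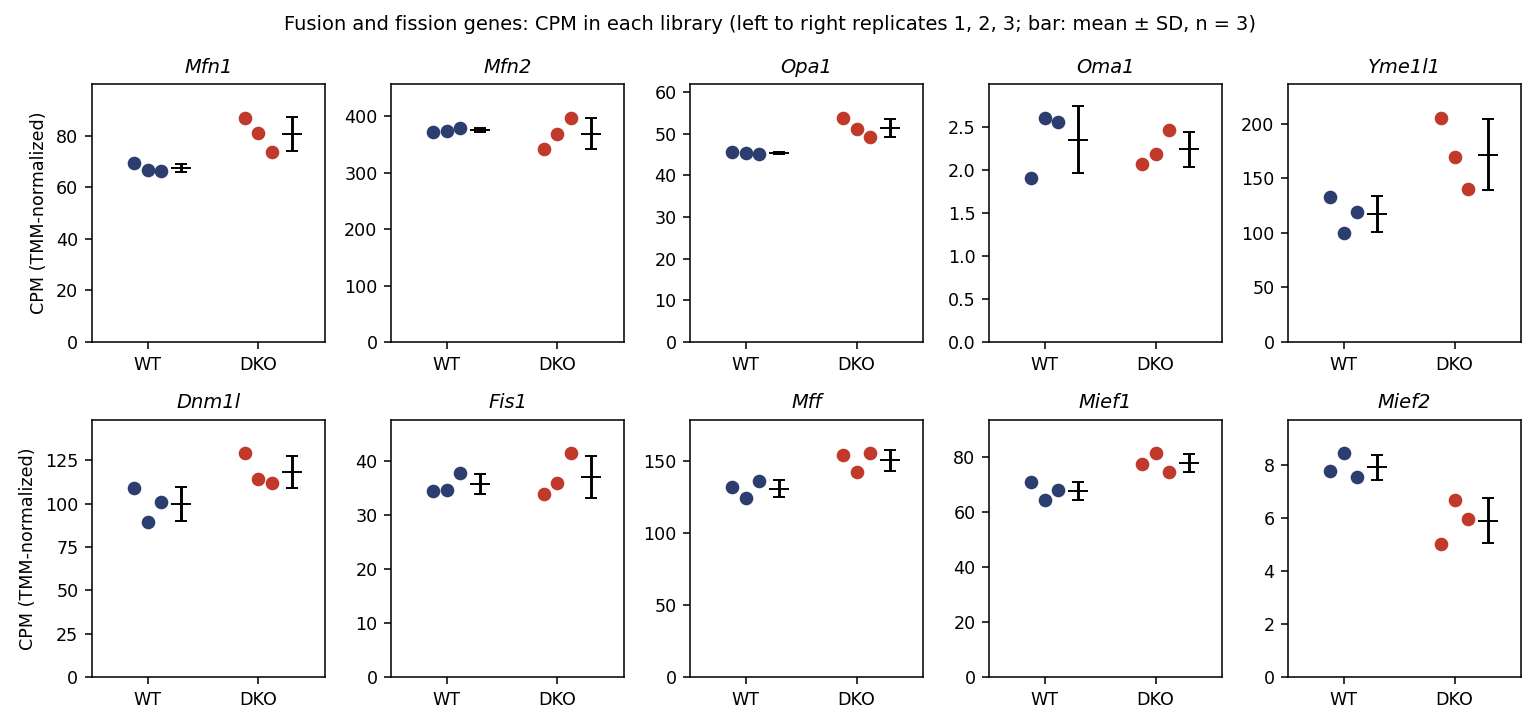
Each panel plots 1 gene, with TMM-normalized CPM on the vertical axis from 0, points for the 3 libraries of each labelled genotype and a bar for mean ± SD (n = 3). Yme1l1 sits at 140 to 205 CPM in libraries labelled DKO and 100 to 133 in those labelled WT, and Mief2 averages 5.88 ± 0.845 against 7.90 ± 0.463.

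Among the fusion GTPases, Mfn1 and Opa1 had higher values in every library labelled DKO, and Mfn2 did not separate the groups. None of the 3 passed the test over all genes. Mfn1 (chr3:32529443-32579225, plus strand, GRCm38.p6), an outer-membrane mitofusin, had 86.9, 81.2 and 73.7 CPM in the libraries labelled DKO and 69.3, 66.7 and 66.5 CPM in those labelled WT. The lowest library labelled DKO was above the highest labelled WT, but the log2 fold change of 0.26 (SE 0.0765, 95% confidence interval 0.09 to 0.42) just missed the threshold (edgeR adjusted p = 0.0524). Without DKO replicate 3, the library labelled DKO with the lowest Mfn1 level, the fold change was 0.32 and passed it (edgeR adjusted p = 0.0181). In the other 5 fits that left out 1 library it did not pass, with fold changes of 0.18 to 0.26 and edgeR adjusted p from 0.0757 to 0.188, the latter without DKO replicate 1.

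Mfn2 (chr4:147873586-147904909, minus strand), the second mitofusin, which also links mitochondria to the endoplasmic reticulum, had 343, 368 and 397 CPM in the libraries labelled DKO and 373, 374 and 380 in those labelled WT. The 3 libraries labelled WT lay within the range of those labelled DKO. Its log2 fold change was -0.02, with an interval from -0.19 to 0.14 (edgeR adjusted p = 0.844).

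Opa1 (chr16:29579281-29663127, plus strand), the inner-membrane fusion GTPase, had 53.8, 51.1 and 49.3 CPM against 45.7, 45.5 and 45.2 CPM. The groups did not overlap and the values labelled WT were close together, with an SD of 0.254. Opa1 differed by 0.18 in log2 (SE 0.0683, interval 0.03 to 0.33; edgeR adjusted p = 0.104).

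OPA1 is made from alternatively spliced transcripts, and a site at which YME1L cleaves it lies in a small optional exon. The optional exons are therefore shown with their GRCm38 positions on the plus strand, 5′ to 3′. The files name 2 RefSeq transcripts of Opa1. Their matched GENCODE M21 transcripts are set apart by an internal coding exon of 54 bases at chr16:29588823-29588876. Other differences, such as at the transcript ends, were not examined. GENCODE M21 annotates a further coding exon of 111 bases at chr16:29597586-29597696. This exon, known as exon 5b, encodes a YME1L site and is in neither of those 2 transcripts. The deposited counts therefore carry no separate value for it.
Opa1 optional exon of 54 bases: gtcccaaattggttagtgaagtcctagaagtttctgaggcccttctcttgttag
Opa1 exon 5b of 111 bases: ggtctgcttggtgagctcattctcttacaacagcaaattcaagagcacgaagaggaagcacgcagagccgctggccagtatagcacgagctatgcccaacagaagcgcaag

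The deposited gene length is a mean over a gene's transcripts weighted by their estimated abundance, so it moves when the mix of transcripts moves. Opa1 had lengths of 5957.5, 5957.0 and 5961.7 bases in libraries labelled DKO and 5957.8, 5952.2 and 5953.0 bases in those labelled WT, and the groups overlapped (exact two-sided permutation p = 0.3). Of the 4 genes with more than 1 transcript in the files, Dnm1l was the only one whose lengths did not overlap: 4031.2, 4035.8 and 4037.1 bases against 4042.2, 4040.4 and 4045.3 bases. The mean was 7.90 bases shorter in the libraries labelled DKO (exact permutation p = 0.1; 0.4 after Benjamini-Hochberg adjustment over the 4 genes). Mfn2 and Fis1 overlapped, with mean differences of -0.16 and 2.43 bases (exact permutation p = 0.3 and 0.4). An exact test of 3 libraries against 3 cannot give a p under 0.1.

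Of the OPA1 proteases, Yme1l1 was called and Oma1 was not, and their 95% confidence intervals overlapped. Yme1l1 (chr2:23155442-23199260, plus strand) encodes the ATP-dependent protease of the inner membrane that faces the intermembrane space. It had 205, 169 and 140 CPM in the libraries labelled DKO and 133, 100 and 119 CPM in those labelled WT, 171 ± 32.4 against 118 ± 16.6 (SD, n = 3 each). All libraries labelled DKO were above all labelled WT, although DKO replicate 3 was close to WT replicate 1. The log2 fold change was 0.54 (SE 0.134, 95% confidence interval 0.25 to 0.84; 1.46-fold; edgeR adjusted p = 0.0358). It was not called without DKO replicate 1 (0.38; adjusted p = 0.139), DKO replicate 2 (0.54; 0.0744), WT replicate 2 (0.43; 0.125) or WT replicate 3 (0.55; 0.108), fits that leave 2 libraries in a group. With both length and GC trends of each library removed, the fold change was 0.16 (adjusted p = 0.263).

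Oma1 (chr4:103311875-103371869, plus strand) encodes the protease that cleaves OPA1 when the inner membrane loses its potential. It was low, with 86, 96 and 166 counts in the libraries labelled DKO and 50, 87 and 79 in those labelled WT. In CPM this was 2.07, 2.18 and 2.46 against 1.90, 2.60 and 2.55, so the groups overlapped. The log2 fold change of -0.07 had a wide interval, -0.45 to 0.30 (edgeR adjusted p = 0.804), so a change of the size seen for Mfn1 was not excluded at this depth.

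Dnm1l (chr16:16312228-16359038, minus strand), the division GTPase, had 129, 114 and 112 CPM in libraries labelled DKO and 109, 89.3 and 101 CPM in those labelled WT. The groups did not overlap, by a margin that was small beside the spread within each. Dnm1l differed by 0.24 in log2 (SE 0.0893, interval 0.05 to 0.44; edgeR adjusted p = 0.0882). The order of the 6 libraries by Dnm1l, and also by Yme1l1, was that of their mean fragment lengths, an order that 5.07% of all tested genes had. The part of fragment length in these values was not tested by this match.

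The adaptors differed in direction. Mff (chr1:82724890-82752390, plus strand), a tail-anchored receptor that recruits DRP1, had 154, 142 and 155 CPM in libraries labelled DKO and 132, 124 and 136 CPM in those labelled WT. Mief1 (chr15:80233964-80253372, plus strand), which encodes MiD51, had 77.5, 81.3 and 74.6 CPM against 70.9, 64.3 and 67.9 CPM. In both genes each library labelled DKO was above each labelled WT. Both had a log2 fold change of 0.20, with intervals of 0.04 to 0.36 for Mff and 0.05 to 0.36 for Mief1, and neither passed the test (edgeR adjusted p = 0.0839 and 0.0813).

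Fis1 (chr5:136953275-136966234, plus strand), the small outer-membrane protein first described as the DRP1 receptor, had 33.9, 36.0 and 41.4 CPM in libraries labelled DKO and 34.5, 34.7 and 37.8 CPM in those labelled WT. The lowest and the highest of all 6 libraries were both labelled DKO. Fis1 differed by 0.06 in log2 (interval -0.13 to 0.25; edgeR adjusted p = 0.685).

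Mief2 (chr11:60728398-60732951, plus strand) encodes MiD49, the paralog of MiD51. It had 208, 294 and 403 counts in libraries labelled DKO and 204, 282 and 233 counts in those labelled WT, from smaller totals. In CPM it had 5.0, 6.68 and 5.97 against 7.74, 8.42 and 7.53, so each library labelled DKO was below each labelled WT. The log2 fold change was -0.42 (SE 0.123, interval -0.69 to -0.15; 0.745-fold), and its edgeR adjusted p of 0.0495 lay at the threshold. It was not called in any of the 6 fits that left out 1 library: without DKO replicates 1, 2 and 3 the edgeR adjusted p was 0.171, 0.0560 and 0.0574, and without WT replicates 1, 2 and 3 it was 0.0577, 0.156 and 0.117, with fold changes from -0.53 to -0.34. It was likewise not called with every library thinned to the smallest total (-0.35; adjusted p = 0.0938) or with length and GC trends removed (-0.28; 0.161).

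The promoters of Yme1l1 and Mief2 are shown because these were the called genes and they moved in opposite directions. Each is the 250 bases before the RefSeq transcription start in GRCm38.p6, 5′ to 3′ on the plus strand. The Yme1l1 window lies inside the gene span given above, before a start downstream of that span's first base. Capitals mark matches on either strand to 6 motifs. The GC box, bound by SP1 and related factors, was searched as GGGCGG. The CCAAT box, bound by NF-Y, was searched by the letters of its name. The core bound by ETS factors was searched as CCGGAAG. The short core of the cAMP response element was searched as TGACG. The E-box bound by basic helix-loop-helix factors was searched as CACGTG, and the palindromic core of NRF1, a regulator of mitochondrial genes, was the last.
Yme1l1 promoter, chr2:23156255-23156504: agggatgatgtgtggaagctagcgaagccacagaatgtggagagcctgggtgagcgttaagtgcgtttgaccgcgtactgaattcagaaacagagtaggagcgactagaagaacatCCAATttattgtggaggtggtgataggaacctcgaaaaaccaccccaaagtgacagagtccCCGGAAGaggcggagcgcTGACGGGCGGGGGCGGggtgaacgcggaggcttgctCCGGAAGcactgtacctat
Mief2 promoter, chr11:60728148-60728397: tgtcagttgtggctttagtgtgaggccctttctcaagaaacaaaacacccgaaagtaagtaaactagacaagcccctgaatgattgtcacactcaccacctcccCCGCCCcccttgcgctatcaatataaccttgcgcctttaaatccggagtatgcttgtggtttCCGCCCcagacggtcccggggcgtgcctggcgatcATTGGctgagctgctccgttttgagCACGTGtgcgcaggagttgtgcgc
Both windows held 2 GC boxes and 1 CCAAT match. The Yme1l1 window also held 2 ETS cores and 1 TGACG, the latter overlapping a GC box, and the Mief2 window held 1 E-box. Among 32851 promoter windows of the same length, 32.7% held a GC box, 33.8% CCAAT, 6.9% the ETS core, 17.8% TGACG, 6.0% the E-box and 0.8% the NRF1 core, which Opa1 alone of the 10 genes held. A match is a run of letters and not a measured binding site.

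Ratios of related genes within a library do not depend on how libraries are scaled. A trend of the library on transcript GC content does not cancel in them where the 2 genes differ in GC. Transcript GC was 50.2% for Mief1 and 57.6% for Mief2, and 45.9% for Mfn1 and 53.7% for Mfn2. With length and GC trends removed, log2 fold changes were 0.16 for Mief1 and -0.28 for Mief2, and 0.11 for Mfn1 and 0.02 for Mfn2. These 4 ratios of TPM were chosen after the values were seen. Mief1 over Mief2, the MiD51 and MiD49 receptors, was 7.18, 5.67 and 5.85 in libraries labelled DKO and 4.30, 3.60 and 4.24 in those labelled WT, 1.54 times higher with no overlap (exact two-sided permutation p = 0.1; 0.2 adjusted over the 4 ratios). Mfn2 over Mfn1 was 3.99, 4.60 and 5.45 against 5.46, 5.68 and 5.79, lower with DKO replicate 3 almost touching WT replicate 1 (exact permutation p = 0.1; 0.2 adjusted). Yme1l1 over Oma1 overlapped, at 36.0, 28.6 and 21.1 against 26.2, 14.5 and 17.5 (exact permutation p = 0.2). Mff over Fis1 also overlapped, at 1.45, 1.31 and 1.25 against 1.31, 1.27 and 1.25 (exact permutation p = 0.7).

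**Figure D2:**
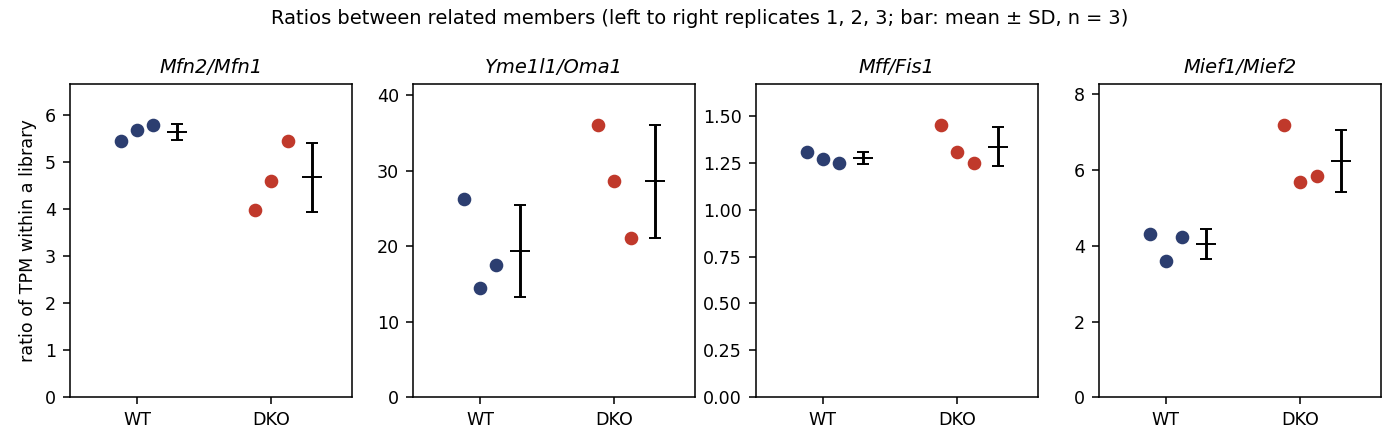
Each panel plots a ratio of TPM between 2 genes within a library on an axis from 0, with points for the 3 libraries of each labelled genotype and a bar for mean ± SD (n = 3). Mief1 over Mief2 lies at 5.67 to 7.18 in libraries labelled DKO and 3.60 to 4.30 in those labelled WT, without overlap.

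Fold changes over all genes followed the base composition of the transcript. The tested genes with a GC value were divided by GC content into 10 classes of equal size, 1684 genes each. The median log2 fold change fell from 0.29 in the class of lowest GC (29.8% to 42.0%) to -0.23 in the class of highest GC (58.2% to 73.1%). In these classes 23.7% and 0% of the genes were called higher. Yme1l1 had the lowest GC of the 10 genes, 38.0%, and Mief2 the highest, 57.6%. Yme1l1 and Dnm1l (41.5%) fell in the class of lowest GC. Opa1 (44.7%) and Mfn1 (45.9%) fell in a class with a median of 0.12. Mief2 fell in a class with a median of -0.18, of which 11.3% were called lower. Mief1 (50.2%) and Fis1 (55.5%) fell in classes with medians of -0.03 and -0.13. For Mff (46.8%), Mfn2 (53.7%) and Oma1 (48.5%) the class medians were 0.07, -0.08 and 0.02. Of the 10 genes, all but Oma1, Dnm1l and Mief2 were above the median of their class.

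**Figure D3:**
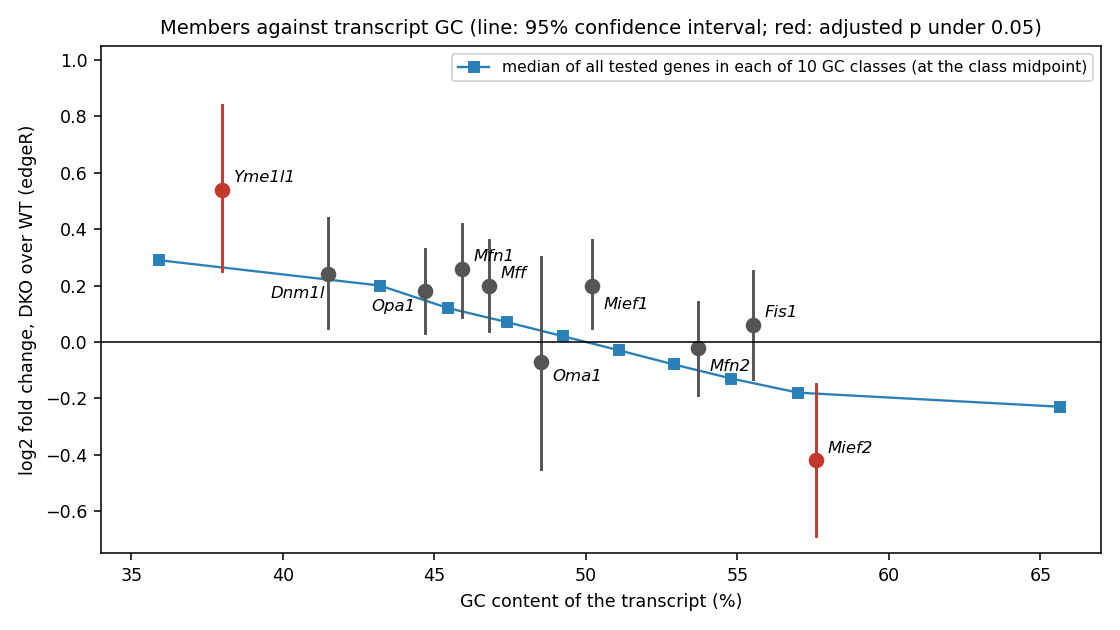
The horizontal axis is transcript GC content in percent and the vertical axis the edgeR log2 fold change. Points and 95% confidence intervals mark the 10 genes (red for called). Squares mark the median of the tested genes with a GC value in each of 10 GC classes. The called genes Yme1l1 (38.0%) and Mief2 (57.6%) stand at the ends of the GC range of the 10, and the class medians fall from 0.29 to -0.23.

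When the trend of each library on transcript length and GC content was removed, none of the 10 genes was called by edgeR, with 3 at an unadjusted p under 0.05. The trends were fitted without a genotype term. A difference between the genotypes that follows length or GC is therefore removed with them. Dnm1l and Opa1, at 0.24 and 0.18 without the correction, were then both at -0.02. Mief1 was 0.16, Mff 0.11, Mfn1 0.11 and Fis1 0.28 in that fit. The 3 genes at an unadjusted p under 0.05 were Fis1, Mief1 and Mief2 (edgeR unadjusted p = 0.00269, 0.0178 and 0.025). Fis1 came nearest to the threshold (edgeR adjusted p = 0.0588). An offset from the effective lengths alone, which takes in fragment length but not GC, left Yme1l1 called at 0.52 (edgeR adjusted p = 0.0385). Mief2 was at -0.43 in that fit and was not called (edgeR adjusted p = 0.0502). With mean fragment length as a covariate, Yme1l1 was -0.12 and Mief2 -0.11 (adjusted p = 0.999 for both), in a fit whose covariate does not overlap between the genotypes, so the covariate and the genotype cannot be told apart.

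**Figure D4:**
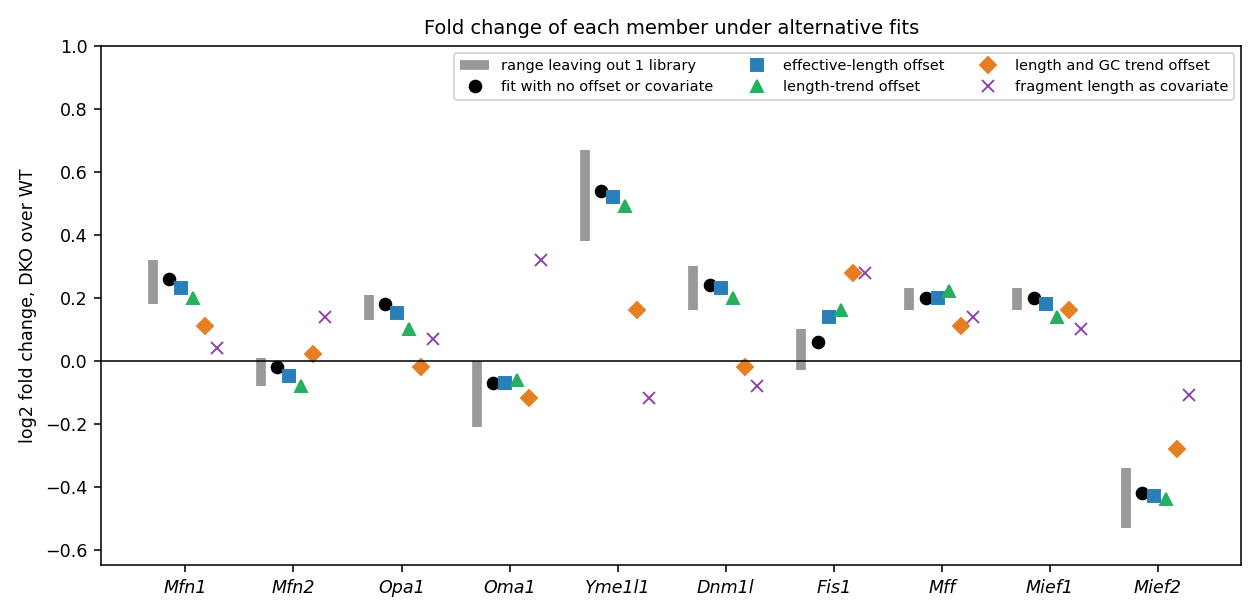
The vertical axis is the log2 fold change of each gene, with grey bars for the range over the 6 fits that leave out 1 library and symbols for the fit with no offset, the 2 length offsets, the length and GC offset and the fragment length covariate. Yme1l1 drops from 0.54 to 0.16 with the length and GC offset and to -0.12 with the covariate, while Mff stays between 0.11 and 0.23 in the fits drawn.

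Beyond the 10 genes, 48 other genes of mitochondrial dynamics were examined in 5 lists, and all 48 were tested. Of these, 3 rose and 4 fell in libraries labelled DKO, a share near the 10.8% of all genes, and the median log2 fold change was 0.03. In the list named outer membrane fusion partners, of 7 genes whose part in fusion was not tested, Pld6 fell. Opa3, a gene of optic atrophy, missed the threshold at -0.37 (edgeR adjusted p = 0.0702). Pld6 encodes MitoPLD, which promotes mitofusin-dependent fusion and in germ cells takes part in the making of piRNAs. It had 52.1, 64.6 and 52.3 CPM in the libraries labelled DKO and 71.2, 76.7 and 71.4 CPM in those labelled WT, a log2 fold change of -0.38 (edgeR adjusted p = 0.0345).

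Of 8 mitochondrial proteases and prohibitins, 3 fell and none rose, beside 5.10% of all tested genes called lower, with a list median of -0.07. Phb, an inner-membrane scaffold protein needed for stable long OPA1, went from 88.0, 80.7 and 75.3 CPM in libraries labelled WT to 57.6, 66.5 and 63.0 CPM in those labelled DKO (log2 fold change -0.38; edgeR adjusted p = 0.0277). Its partner Phb2 was at -0.05 and did not pass the test (adjusted p = 0.667). The other called genes, Lonp1 and Clpp, encode ATP-dependent proteases of the matrix and not of the inner membrane, and had fold changes of -0.41 and -0.40 (edgeR adjusted p = 0.0473 and 0.0408). Afg3l2, a subunit of the matrix-facing protease of the inner membrane, was at 0.05 and did not pass the test (adjusted p = 0.622).

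Among 8 genes of the MICOS complex, which holds cristae junctions, and its outer-membrane partner, Apoo alone was called. Apoo had 8.58, 7.23 and 6.35 CPM in libraries labelled DKO and 5.12, 4.24 and 5.30 CPM in those labelled WT, a log2 fold change of 0.59 (edgeR adjusted p = 0.0337). Immt, which encodes the core subunit mitofilin, had 225, 215 and 218 CPM against 201, 181 and 196 CPM and did not pass the test (0.19; adjusted p = 0.0916). The list median was 0.07.

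Of 15 regulators of division, Spire1 alone was called. It encodes an actin nucleator of which 1 isoform sits on mitochondria, and its log2 fold change was 0.37 (edgeR adjusted p = 0.0423). Stx17, a syntaxin that binds DRP1 and later serves in autophagy, was at 0.24 and just missed the threshold (0.0515). Akap1, the most abundant of the 15 in CPM, anchors protein kinase A at the outer membrane and had 1200, 1250 and 1180 CPM against 1230, 1040 and 1110 CPM (0.10; adjusted p = 0.395). Of 10 genes of mitochondrial transport and mitophagy, Rhot1 alone was called. Rhot1, the Miro GTPase that couples mitochondria to motors, had 115, 101 and 88.8 CPM in libraries labelled DKO against 82.8, 72.4 and 82.0 CPM (0.36; edgeR adjusted p = 0.0404). The 3 genes that rose had a GC content of 43.9% to 48.0% and the 4 that fell 55.5% to 61.5%. None of these 7 was called by edgeR without DKO replicate 1, WT replicate 2 or WT replicate 3, and without DKO replicate 2 only Pld6 and Phb were. With length and GC trends removed, Apoo remained called (0.51; edgeR adjusted p = 0.0486) and the other 6 did not, with 13 of the 48 at an unadjusted p under 0.05.

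**Figure D5:**
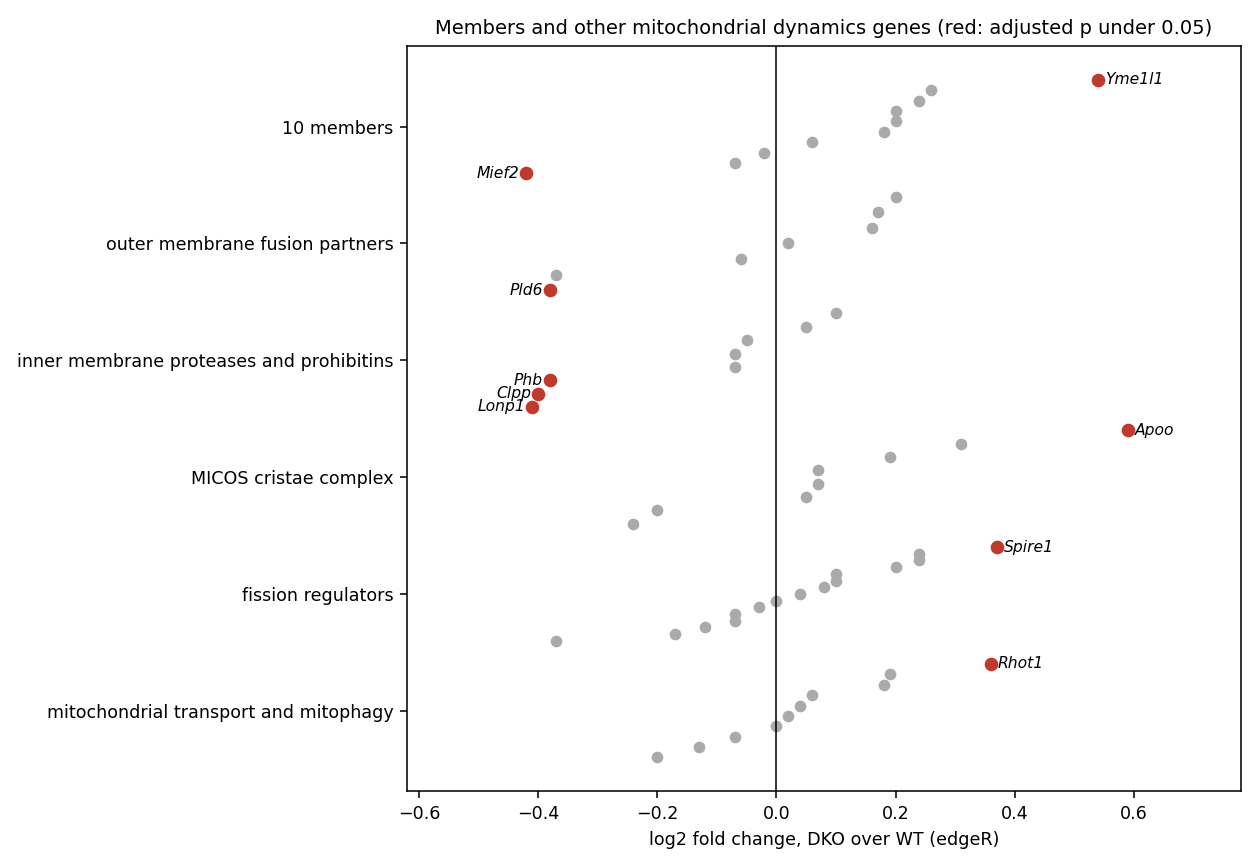
The horizontal axis is the edgeR log2 fold change and each row a gene list, with a point for each gene, red and named where the adjusted p was under 0.05. Yme1l1, Apoo, Spire1 and Rhot1 lie above 0.3 on the right, and Mief2, Pld6, Phb, Clpp and Lonp1 lie below -0.3 on the left.

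For each called gene of the 10, the most similar of the 48 was found by Pearson's r of log2 CPM over the 6 libraries, as a description. Yme1l1 was most like Rhot1 (r = 0.991) and Mief2 most like Pld6 (r = 0.955). These points share library, depth and fragment length, and each is the largest of 48 values, chosen for its size. Rhot1 and Pld6 were also called, each in the direction of its partner, so r over both groups takes in the difference between the groups.

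Markers of the testis cell types were present. Of all tested genes 5.75% were called higher and 5.10% lower. Of 8 spermatocyte markers, 3 were called higher (Sycp3, Hormad1 and Pou5f2, with log2 fold changes of 0.67, 0.54 and 0.30) and none lower. Sycp1, Sycp2 and Meiob were at 0.55, 0.42 and 0.33 and not called (edgeR adjusted p = 0.0691, 0.0529 and 0.0763). Piwil1 and Ccna1 were at -0.01 and -0.08 and not called. The list median was 0.38. Piwil1, at a mean of 513 CPM in libraries labelled DKO and 515 in those labelled WT, had the highest level of the 8. The summed level of the 8 was 1220 to 1580 CPM in libraries labelled DKO and 1120 to 1230 CPM in those labelled WT, which overlap. Of 8 Leydig cell markers 3 were called lower, with summed levels of 375 to 600 CPM against 592 to 1130 CPM. Sertoli markers summed to 959 to 1140 against 1080 to 1330 CPM (2 of 8 called lower), spermatid markers to 17600 to 22000 against 20000 to 22400 CPM (1 of 8 called lower) and spermatogonia markers to 95.7 to 102 against 93.5 to 107 CPM (0 of 7 tested called by edgeR, 0 at an unadjusted p under 0.05). Peritubular myoid sums were lower without overlap, at 117 to 131 against 133 to 176 CPM (1 of 5 called lower). Endothelial sums were also lower without overlap, at 34.3 to 38.4 against 39.8 to 42.1 CPM (0 of 5 called by edgeR, 1 at an unadjusted p under 0.05). Taken singly, 2 of 5 myoid and 1 of 5 endothelial markers did not overlap, against 35.9% of all tested genes. Macrophage sums overlapped at 58.4 to 65.8 against 51.7 to 76.0 CPM. Of 5 epididymal markers Lcn5 and Lcn8 were at 0 in all libraries and none exceeded 6 counts. The part of cell composition in the values of the 10 genes was not tested.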

How the data were processed

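The submitters' processing notes name STAR 2.7.0f, RSEM 1.2.31, DESeq2 1.12.3 and the mm10 build, with strand handling not given in the sources used here. The deposited files hold, per the file headers, RSEM expected counts per gene, TPM scaled by the authors to 1 total per library, FPKM values deposited by the authors (not used), and lengths. Of the expected counts, 93.2% were whole, and those of all 10 genes were (tolerance 0.005).

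Counts were rounded, filtered by filterByExpr, scaled by TMM and compared by the edgeR 4.0.16 quasi-likelihood test with genotype as the only term over 6 libraries. P-values were adjusted by Benjamini-Hochberg over 17110 genes and called under 0.05. The SE is the absolute log2 fold change over the square root of F. The reported edgeR fit was tested on simulated counts that carried no trend on GC content or fragment length, so the simulation does not bear on such trends. Alternatives used DESeq2 1.42.0, limma 3.58.1 (trend on log2 TPM with pseudocounts of 1 and 0.1), effective-length offsets, and trends fitted by mgcv 1.9.3. Fragment length was taken as 1 plus the median gap between the length and effective length columns, for genes above 3000 bases. GC came from GENCODE M21 transcripts with the files' accessions (97.8% of genes). Positions and promoters are RefSeq's for GRCm38.p6, matched by symbol for 10 of 10 genes. Counts of Dnm1l, Mff and Mief1 may include fragments of overlapping genes, which covered 5.83%, 10.3% and 4.14% of their exon bases.

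Named genes are the 10, both targeted genes, called list genes (up to 6 a direction) and the closest list gene of each called one; list genes named beside them, and markers, were chosen after their values were seen. The 10 genes and lists were chosen with earlier results of these data known.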

Additional observations from a re-analysis of the deposited data

How the results depend on the processing

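No paired analysis was possible because the labels give the samples no replicate numbers: those used here follow accession order and only name the libraries. Over all genes, 1856 were called, 984 higher and 872 lower. The count was 2943 with DESeq2, 735 and 947 with limma on log2(TPM + 1) and log2(TPM + 0.1) (38.0% and 39.1% of them higher, against 53.0%), 616 with length and GC trends removed, 1 with fragment length as a covariate (545 at an unadjusted p under 0.05), 7 at an adjusted p under 0.01, and 7 to 3029 when 1 library was left out, lowest without WT replicate 3 and also 11 without DKO replicate 1 and 13 without WT replicate 2. Of the 10 genes, 2 were called, and 1 with limma-voom, the effective-length offset or thinning, 0 with limma on either TPM scale (4 at an unadjusted p under 0.05), length and GC trends removed (3) or the covariate (0), 0 at an adjusted p under 0.01 (7), and 0 to 2 when 1 library was left out (3 to 6 at an unadjusted p under 0.05). Of the 48 list genes, 7 were called, and 3 with limma on either TPM scale, 1 with length and GC trends removed, 0 with the covariate (0 unadjusted), 0 at an adjusted p under 0.01 (17 unadjusted) and 0 to 8 when 1 library was left out (0 without DKO replicate 1, WT replicate 2 or WT replicate 3, with 13 to 14 unadjusted). With the covariate the log2 fold change changed sign for Mfn2 (0.14), Oma1 (0.32), Yme1l1 (-0.12) and Dnm1l (-0.08), and with length and GC trends removed for Mfn2 (0.02), Opa1 (-0.02) and Dnm1l (-0.02). It also did so for Oma1 with thinning (0.02), Mfn2 without DKO replicate 1 (0.01) and Fis1 without DKO replicate 3 (-0.03). The cause was not tested. Mfn1, Mff, Mief1 and Mief2 kept their direction in all 19 fits run besides the reported fit, and Mfn1 passed the threshold with DESeq2 (adjusted p = 0.0291) and with no count filter (0.0455). Thinning and the joint length and GC trend were chosen after seeing the data. Depth limits Oma1 most, with 50 to 166 counts a library.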

Other observations

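Of the 10 genes, 2 lie on chromosome 16 with the targeted gene Abcc5 (chr16:20331303-20426428, GRCm38.p6): Dnm1l at a distance of 3.97 megabases and Opa1 at 9.15 megabases. Neither was called. None lies on chromosome 8, which holds Abcc12.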
